A study of Rattus norvegicus with 24 samples.

Results

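Thyroid glands of female rat pups killed at night were compared with and without acrylamide, on 8 of the 24 expression arrays of the study. The 8 arrays were taken by their labels: 4 control females and 4 acrylamide females, all collected at 10 PM. All pups were of the RccHan Wistar strain. Treated pups were exposed from gestational day 6, first through the dams and later by their own drinking water, to a daily 3 mg of acrylamide per kg of body weight, until they were killed at postnatal day 35 ± 3. Controls drank tap water. Per the labels 5 pups of each sex were killed at each time of day. Which animal or litter a replicate number stands for is not stated there, and p-values therefore reflect only how much these samples varied. Arrays from male pups at night, and from female pups taken at 10 AM, serve below only for comparison.

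The thyroid follicle is an epithelium that secretes thyroglobulin, a very large protein, into a lumen. There iodine is coupled to it with hydrogen peroxide made by dual oxidases. So heavy a secretory load passes through the endoplasmic reticulum, whose chaperones are governed by the unfolded protein response: the sensors ATF6 and IRE1 raise genes such as Hspa5 when unfolded protein accumulates, and PERK slows translation. Acrylamide is a small electrophile that binds thiols. It is cleared by conjugation to glutathione through glutathione S-transferases, and CYP2E1 oxidises it to the epoxide glycidamide. Electrophiles also modify KEAP1 and so release NRF2, a transcription factor for glutathione synthesis and antioxidant enzymes. Pituitary thyrotropin acts on the follicle through its receptor.

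Some unfolded protein genes and some transferases carry a short motif known for their group, and 6 promoters of genes that were higher on all 4 acrylamide arrays are shown to let the motifs be seen. Other genes of both groups, given below, have no match. Each is the 250 bases before the annotated start of the gene, 5′ to 3′ on the strand of the gene, from RefSeq on the GRCr8 build. For the 4 chaperone genes the capitals mark the endoplasmic reticulum stress element, searched on both strands as CCAAT and CCACG with any 9 bases between them. For the 2 transferases the capitals mark a match to TGACNNNGC, the core of the antioxidant response element, also on both strands. Neither search allowed a mismatch. The windows lie at chr3:38452766-38453015 (Hspa5, plus strand), chr7:121789134-121789383 (Creld2, plus), chr20:12766466-12766715 (Derl3, minus), chr15:102432417-102432666 (Dnajc3, plus), chr9:31154739-31154988 (Gsta3, plus) and chr1:210769706-210769955 (Gstp1, minus).
Hspa5: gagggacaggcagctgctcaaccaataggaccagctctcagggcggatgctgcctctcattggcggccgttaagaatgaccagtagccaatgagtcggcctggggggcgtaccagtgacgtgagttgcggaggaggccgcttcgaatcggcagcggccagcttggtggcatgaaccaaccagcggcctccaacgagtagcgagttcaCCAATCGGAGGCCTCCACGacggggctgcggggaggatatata
Creld2: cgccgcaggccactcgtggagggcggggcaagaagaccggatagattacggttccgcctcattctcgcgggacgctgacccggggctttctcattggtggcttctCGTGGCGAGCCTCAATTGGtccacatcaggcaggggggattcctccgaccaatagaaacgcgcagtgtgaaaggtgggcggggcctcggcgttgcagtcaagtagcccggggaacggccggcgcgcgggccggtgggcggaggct
Derl3: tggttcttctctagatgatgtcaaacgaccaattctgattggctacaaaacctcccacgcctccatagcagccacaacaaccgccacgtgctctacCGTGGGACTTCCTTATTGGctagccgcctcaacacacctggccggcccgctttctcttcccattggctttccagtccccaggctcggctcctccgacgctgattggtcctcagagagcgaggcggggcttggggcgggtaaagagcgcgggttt
Dnajc3: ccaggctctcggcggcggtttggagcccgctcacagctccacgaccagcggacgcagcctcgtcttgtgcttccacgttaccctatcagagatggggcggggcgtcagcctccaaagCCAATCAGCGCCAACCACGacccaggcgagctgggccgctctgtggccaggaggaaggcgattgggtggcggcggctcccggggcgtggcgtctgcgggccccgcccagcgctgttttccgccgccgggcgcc
Gsta3: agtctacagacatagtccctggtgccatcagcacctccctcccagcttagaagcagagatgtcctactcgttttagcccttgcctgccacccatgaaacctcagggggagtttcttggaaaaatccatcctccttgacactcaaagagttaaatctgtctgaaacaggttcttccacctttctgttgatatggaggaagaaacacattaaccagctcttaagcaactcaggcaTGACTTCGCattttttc
Gstp1: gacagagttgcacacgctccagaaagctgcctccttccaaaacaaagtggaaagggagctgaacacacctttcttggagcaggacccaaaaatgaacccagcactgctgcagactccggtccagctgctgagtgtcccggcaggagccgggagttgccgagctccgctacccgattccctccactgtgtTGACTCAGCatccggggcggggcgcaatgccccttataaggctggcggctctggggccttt

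A level is the log2 processed signal of a probe minus the 75th percentile of its array, so 0 is that percentile, and a difference is acrylamide minus control on the log2 scale. Of 30367 probes, 21543 were tested, standing for 18634 genes (1 probe each for a gene, the one with the highest mean). No probe passed the threshold of a Benjamini-Hochberg adjusted p under 0.05 in limma (0 of 21543, 0%). The smallest adjusted p was 0.479. At an unadjusted p under 0.05 there were 2096 probes (9.73%), 1127 higher (5.23%) and 969 lower (4.5%) with acrylamide. Every gene named below therefore stands by its values alone, and "apart" means that the 4 acrylamide arrays did not overlap the 4 controls. Over all genes tested 731 (3.92%) lay apart above the controls and 328 (1.76%) apart below, 10570 (56.7%) had a difference above 0, and the median difference was 0.03. Counted as probes, 826 (3.83%) lay apart above and 371 (1.72%) below. Counted as genes, 5.21% were higher and 4.64% lower at an unadjusted p under 0.05. The median standard error (SE) over probes was 0.14. The median SD over probes was 0.17 in controls and 0.22 with acrylamide (n = 4 each).

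All 8 arrays lay on 1 slide, with row 1 holding every control and row 2 every treated sample, so treatment and array row cannot be told apart. Between 75.1% and 78.6% of spots were well above background, and 5 measures of array quality gave p-values of 0.114 to 0.943 between the groups (exact permutation test, 2-sided, unadjusted). The faintest probe well above background had a log2 signal of 4.40 to 4.62 in row 1 and of 4.10 to 4.24 in row 2. These ranges did not overlap, and this measure was not among the 5 tested. The Y-linked gene Ube1y1 was not well above background on any of the 8 arrays. Genes of other tissues separated single arrays from the rest, as follows.

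Skeletal muscle, which lies against the gland, contributed strongly and unevenly. The mean level of 30 muscle genes was 5.56, 4.93, 5.58 and 4.83 in controls 1 to 4, and 3.38, 1.42, 4.68 and 5.40 in acrylamide 1 to 4. Acrylamide 2 and 1 were low and acrylamide 4 was within the control range. All 30 genes were lower on average, 0 of them apart, with a median difference of -1.45, which was -0.74 without acrylamide 2. Myl2, a myosin light chain of slow and cardiac muscle, had levels of 2.81, 1.81, 2.90 and 2.03 in controls and -0.09, -3.45, 1.79 and 3.09 with acrylamide. Because these are bulk samples, fewer cells of a type and less RNA per cell cannot be told apart.

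T cell genes and pituitary hormones ran the other way. The mean of 16 T cell and thymocyte genes was -4.30, -3.03, -4.04 and -3.92 in controls, and -2.31, -3.82, -0.51 and -3.33 with acrylamide, where arrays 3 and 1 were high. Cd3e, a chain of the T cell receptor complex, was well above background on 0 of 4 controls and 3 of 4 acrylamide arrays, at least 3.22-fold higher (adjusted p = 0.479, limma). The fold was taken against the faintest level well above background on each control array, or the level of Cd3e itself where that was higher. Probes were tested when well above background in either group, so Cd3e was tested only through the acrylamide arrays. Members entering in this way can raise the mean and median of a list. The mean of 6 pituitary hormone genes was -4.15, -5.16, -4.87 and -3.84 in controls, and -5.18, -0.92, -2.23 and -2.42 with acrylamide, where arrays 2, 3 and 4 were high. Pomc, the corticotropin precursor, read -0.23, -0.52, -0.64 and -0.18 in controls and -0.68, 4.81, 2.74 and 2.13 with acrylamide. Of the T cell genes only Bcl11b, a factor of T cell commitment, lay apart (1.27, SE 0.55, and 0.73 without acrylamide 3), and of the pituitary genes 0 did. Over all genes 3.92% lay apart above. Without acrylamide 3 the median difference of the T cell list went from 1.26 to 0.50, and without acrylamide 2 that of the pituitary list went from 2.15 to 1.37. Pth, the hormone of the adjoining parathyroid (difference 0.05, SE 0.14), and Calca, which encodes calcitonin of the C cells (0.29, SE 0.17), overlapped between the groups.

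**Figure D1:**
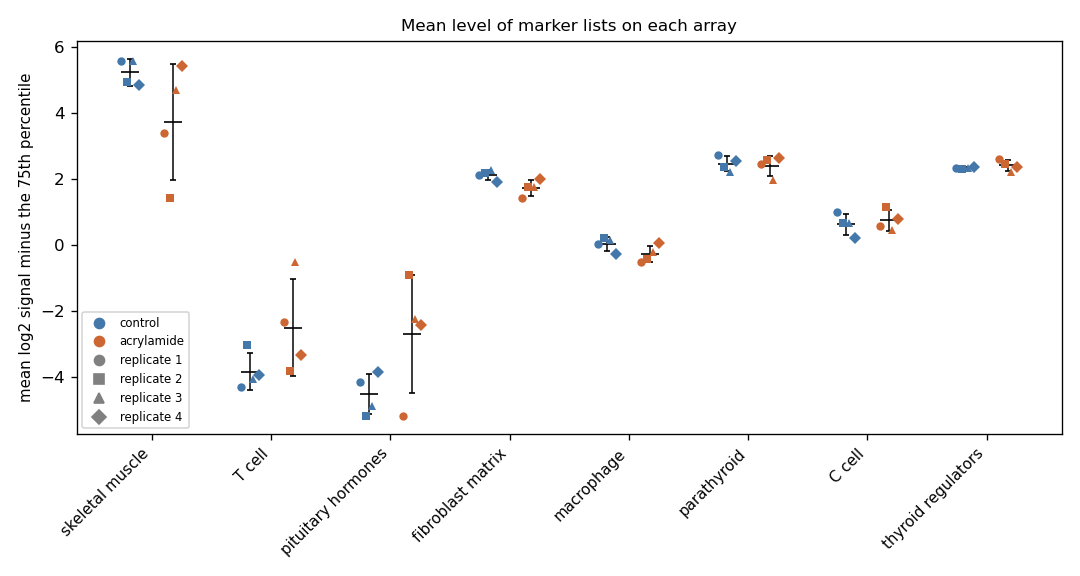
Mean level (log2 processed signal minus the 75th percentile of the array) of the tested genes of 8 marker lists on each of the 8 arrays. Symbols mark replicate numbers, bars the group mean and SD (n = 4). Acrylamide 2 stands lowest for muscle (1.42) and highest for pituitary hormones (-0.92), and acrylamide 3 highest for T cells (-0.51).

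Genes of the unfolded protein response were higher with acrylamide as a group. Of 29 genes tested, 24 were higher and 5 lower, with a median difference of 0.32 beside 0.03 for all genes. None passed the test. Apart from the controls lay 8 above and 0 below, against 3.92% and 1.76% of all genes. Processed otherwise, 5 (median centring), 10 (quantile normalization) or 7 (normexp background correction) lay apart above, with 0 below in each. With acrylamide 2 and 3 left out, a choice made after seeing the data, 16 of the 29 lay apart above and 1 below. Of all genes 13.7% and 8.4% did so. With the mean of the muscle genes as a covariate the median stayed at 0.32, with 20 higher and 9 lower.

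The largest difference in the list was that of Creld2, a disulfide isomerase of the endoplasmic reticulum. It read 1.11, 1.53, 1.61 and 2.10 in controls 1 to 4 and 2.74, 2.32, 2.66 and 2.91 in acrylamide 1 to 4. The groups did not overlap and the difference was 1.07 (SE 0.21, 2.10-fold). Its probe maps to chr7:127125310-127125369 on the rn4 build. Hspa5, which encodes the chaperone BiP that holds the sensors of the response inactive, read 5.34, 5.25, 5.39 and 5.68 in controls and 6.06, 5.71, 5.89 and 5.95 with acrylamide. Its lowest acrylamide value stood just above the highest control (difference 0.49, SE 0.12).

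Dnajc3, an Hsp40 co-chaperone that also inhibits PERK, varied little within each group. Its levels were 1.76, 1.86, 1.88 and 2.01 in controls and 2.57, 2.42, 2.43 and 2.24 with acrylamide (difference 0.54, SE 0.10). Derl3, which passes misfolded protein to the cytosol, read 1.57, 1.27, 1.82 and 1.68 in controls and 2.43, 2.01, 2.25 and 2.13 with acrylamide (difference 0.62, SE 0.14). Both genes were apart. The other 4 genes apart were the disulfide isomerases Pdia6 (0.54) and Pdia4 (0.53) and the chaperones Hyou1 (0.44) and Hspa13 (0.37).

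Pdia3 (0.46), Sdf2l1 (0.45), Manf (0.45), Dnajb11 (0.45), the calcium-binding chaperone Calr (0.39) and Hsp90b1 (0.39) were also higher, with groups that overlapped. Of the genes downstream of PERK, Ddit3, which encodes the stress factor CHOP, read 2.53, 2.56, 2.78 and 2.64 in controls and 2.56, 2.41, 2.38 and 2.36 with acrylamide (difference -0.20, SE 0.09). Trib3, a target of CHOP and ATF4, differed by -0.60 (SE 0.29). Both overlapped between the groups, as did Xbp1, the factor spliced by IRE1 (0.22, SE 0.11).

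The stress element shown above occurs in the windows of 21 of 27457 RefSeq promoters (0.0765%) and in 18 of the 10847 genes tested that have a promoter in the table (0.166%). Of 23 genes of the unfolded protein list with a promoter, 8 carry it (34.8%), among them 4 of the 7 that lay apart and have a promoter (Creld2, Derl3, Dnajc3 and Hspa5). It begins 43 bases before the start of Hspa5, 133 before Dnajc3, 145 before Creld2 and 154 before Derl3. All 8 were higher, with a median difference of 0.44, while the 15 listed genes without a match had a median of 0.12 (11 higher, 4 lower). The 10 genes with a match outside the list had a median of 0.08 (6 higher, 4 lower, 0 apart), beside 0.03 for all 10847. The windows of Pdia4, Hyou1 and Hspa13, which also lay apart, hold no match. A match describes the sequence and is not a measured binding site, and the list was drawn from known targets of the response.

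Antioxidant genes regulated by NRF2 came next. Of 28 tested, 23 were higher and 5 lower (median 0.19), 4 lay apart above and 0 below, and none passed the test. Over all genes 3.92% lay apart above and 1.76% below. With the muscle mean as a covariate the median was 0.04, with 16 higher and 12 lower. Srxn1, the sulfiredoxin that repairs overoxidised peroxiredoxins, read 1.86, 2.11, 1.38 and 2.03 in controls and 2.58, 2.50, 2.54 and 2.55 with acrylamide. The acrylamide values lay close together above all controls (difference 0.70, SE 0.16, 1.62-fold), and with the same covariate the difference was 0.67. Gclc, the catalytic subunit of the rate-limiting enzyme of glutathione synthesis, read 1.03, 1.04, 0.68 and 0.95 in controls and 1.58, 1.35, 1.35 and 1.22 with acrylamide (difference 0.45, SE 0.12), also apart. Osgin1, an oxidative stress response gene, differed by 0.52 (SE 0.10) and Slc48a1, a haem transporter, by 0.39 (SE 0.09), both apart.

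The classical markers of the pathway were less uniform. Nqo1, a quinone reductase, read -0.32, -0.47, -0.63 and -0.22 in controls and 0.56, -0.44, -0.10 and 0.19 with acrylamide, so that acrylamide 2 lay within the controls (difference 0.46, SE 0.21). Hmox1, haem oxygenase, overlapped (0.18, SE 0.15). Slc7a11, the cystine transporter, had the largest mean difference in the list (1.04, SE 0.58), set by acrylamide 3 at -2.51 against -5.76 to -4.76 on the other 7 arrays, and it was 0.39 without that array. Peroxiredoxin Prdx1 (0.44), thioredoxin Txn1 (0.31) and its reductase Txnrd1 (0.26) were higher with overlap, and Akr7a3, an aldehyde reductase, was lower (-0.57, SE 0.25).

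Of 20 glutathione S-transferases on the list used, 14 were higher and 6 lower (median 0.10), with 4 apart above and 0 below and none passing the test. The shares apart over all genes were 3.92% and 1.76%. Without acrylamide 2 and 3 the median was -0.02, with 10 higher and 10 lower. Gsta1, an alpha class enzyme, read 5.45, 5.81, 5.64 and 5.50 in controls and 6.56, 6.21, 6.30 and 6.19 with acrylamide (difference 0.72, SE 0.12, 1.65-fold). Gsta3 read 4.34, 4.67, 4.73 and 4.52 in controls and 5.35, 5.06, 5.14 and 5.12 with acrylamide (difference 0.60, SE 0.12). Both were well clear of the controls. They are close relatives whose probes may share signal, so they are not independent of each other. Gstp1, of the pi class (0.37, SE 0.12), and Gstt1, of the theta class (0.31, SE 0.12), were apart too. Gsta5, an alpha class member tested but not on the list, also lay apart above (0.52, SE 0.12).

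Of 5 mu class members tested, 4 were lower and 1 was higher. Gstm2 read 0.70, 0.61, 0.76 and -0.32 in controls and -1.12, -1.04, -0.21 and 0.10 with acrylamide (difference -1.01, SE 0.34), and Gstm7 differed by -0.67 (SE 0.31). Their groups overlapped, and with the muscle mean as a covariate the difference of Gstm2 was -0.51. The antioxidant core lies in 12.5% of promoters of genes tested, in 5 of 17 transferases with a promoter (29.4%) and in 2 of 20 NRF2 targets (10%). The transferases were Gsta3, Gstp1 and Gstz1 (0.08), which were higher, and Gstm5 (-0.38) and Gstm7, which were lower. The NRF2 targets were Prdx1 and Me1 (0.04), and of the 3 NRF2 genes apart that have a promoter 0 carry it. No match was found for Gsta1, Srxn1, Gclc or Osgin1. Cyp2e1, the enzyme that oxidises acrylamide, read -0.56, -0.30, -1.19 and -0.67 in controls and -2.89, -1.06, -0.24 and -1.10 with acrylamide, and the groups overlapped (difference -0.64, SE 0.50).

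**Figure D2:**
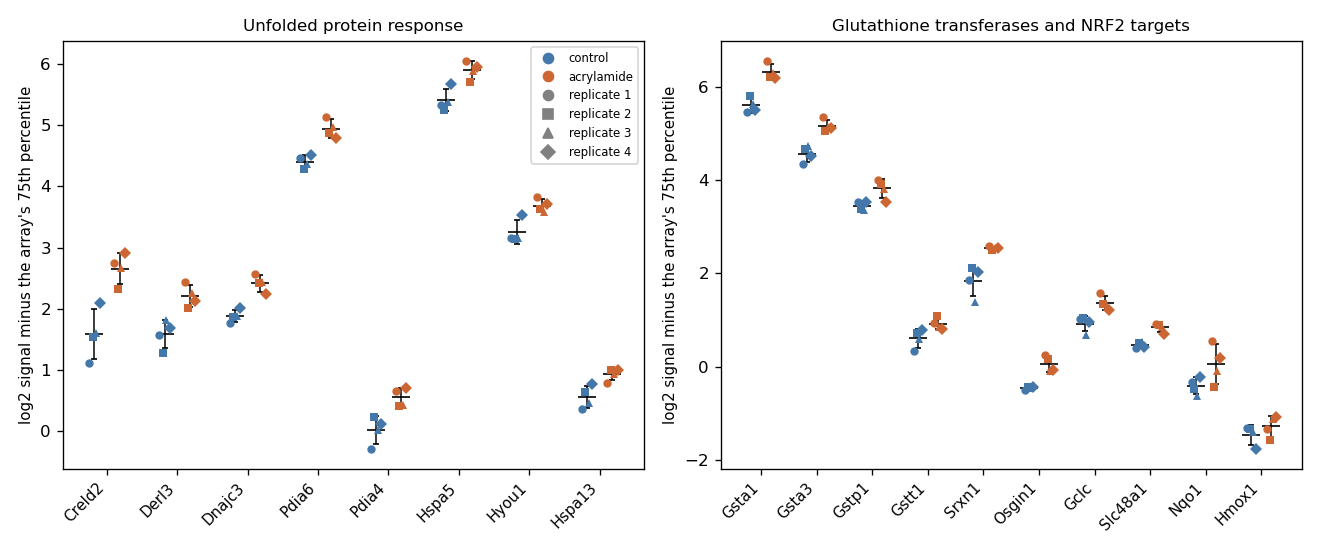
Levels (log2 processed signal minus the 75th percentile of the array) on each of the 8 arrays for the 8 unfolded protein genes that lay apart, and for 10 transferase and NRF2 genes; bars are the mean and SD (n = 4). All acrylamide points lie above all controls except for Nqo1 and Hmox1, and by the widest margin for Gsta1 and Srxn1 in the right panel.

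Heat shock proteins were divided (13 higher and 10 lower of 23, median 0.02, 3 apart above and 2 below). Over all genes 3.92% lay apart above and 1.76% below. Hsph1, an Hsp110 nucleotide exchange factor, read -2.18, -1.90, -2.27 and -1.93 in controls and -1.33, -1.12, -1.52 and -1.34 with acrylamide (difference 0.74, SE 0.13). The small heat shock proteins Cryab (-0.76, SE 0.54), Hspb8 (-0.79, SE 0.45) and Hspb1 (-0.72, SE 0.25) were lower, as were Hspa1l (-1.17, SE 0.52) and the co-chaperone Bag3 (-0.55, SE 0.31). These 5 overlapped between groups and are abundant in muscle. Cryab, for example, read 6.25, 5.41, 5.97 and 5.55 in controls and 4.70, 3.58, 5.34 and 6.50 with acrylamide, with the treated arrays in the same order as their muscle means. With the muscle mean as a covariate, Cryab was at 0.27, Hspb8 at 0.04, Bag3 at -0.03, Hspa1l at -0.24 and Hspb1 at -0.38. The part of muscle content in these differences was not tested.

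Proteasome subunits were slightly higher (20 of 25, median 0.08). Of the 25, 4 lay apart above, against 3.92% of all genes. The count of 4 was 2 under median centring, 7 under quantile normalization and 5 under normexp background correction. Psma2, an alpha ring subunit, differed most, with 1.10, 1.73, 1.30 and 0.90 in controls and 1.92, 1.88, 1.93 and 2.03 with acrylamide (difference 0.68, SE 0.17). Psmd14, the deubiquitinase of the lid, differed by 0.32 (SE 0.10).

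Cell division genes were higher without exception among the 35 tested (median 0.37, 9 apart above, none passing the test). Over all genes 3.92% lay apart above. The count of 9 was 7 under median centring or quantile normalization and 10 under normexp background correction. Under normexp background correction 34 of the 35 were higher, and with the muscle mean as a covariate 33 were. Their mean level was -2.36, -2.36, -2.40 and -2.23 in controls and -1.81, -2.25, -2.09 and -1.83 with acrylamide. Acrylamide 2 lay within the control range in that mean. Ccnb2, a B-type cyclin of mitosis, read -3.77, -3.56, -3.70 and -3.55 in controls and -3.11, -3.41, -2.87 and -2.81 with acrylamide (difference 0.60, SE 0.14). Ccnb1 (0.52, SE 0.13), the mitotic kinases Aurkb (0.50, SE 0.13) and Plk1 (0.41, SE 0.09), and the mitotic kinesin Kif20a (0.41, SE 0.11) were apart, and so were Cenpk (0.52) of the kinetochore and the replication helicase subunits Mcm6 (0.49), Mcm5 (0.46) and Mcm3 (0.32). Mcm3 was at 0.14 without acrylamide 1. Top2a, the topoisomerase of dividing cells, overlapped because acrylamide 2 read -2.30 against -2.29 to -2.11 in controls (difference 0.40, SE 0.17). Its second probe lay apart, at 0.56 (SE 0.099). Thymocytes divide, and the T cell mean was highest in acrylamide 3 and 1. With the T cell mean as a covariate the median was 0.35, with 34 higher and 1 lower. Without acrylamide 2 and 3, a pair chosen after seeing the data, 28 of the 35 lay apart above, where 13.7% of all genes did. Acrylamide 2, which lay within the control range, was thereby left out, while acrylamide 1 with its high T cell mean stayed in. The part of dividing thymocytes in these differences was not tested.

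Nearly all genes of the follicle itself overlapped between the groups. Of 19 hormone synthesis genes tested 13 were higher and 6 lower (median 0.05, 1 apart above). Over all genes 3.92% lay apart above, so 1 of 19 is near that share. Of 10 regulators 8 were higher and 2 lower (median 0.08, 0 apart), but 4 higher and 6 lower (median -0.015) without acrylamide 1. Without acrylamide 2 the synthesis genes were 10 higher and 9 lower (median 0.013) and the regulators 5 and 5. With the muscle mean as a covariate the 2 medians were -0.07 and -0.03. Tg, thyroglobulin, read 8.75, 8.71, 8.76 and 8.58 in controls and 8.70, 9.24, 8.67 and 8.38 with acrylamide. Its difference of 0.05 (SE 0.17) became -0.11 without acrylamide 2.

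Duox2, the peroxide-making oxidase, read 2.27, 2.51, 2.47 and 2.43 in controls and 2.79, 2.75, 2.58 and 2.44 with acrylamide, 3 arrays above the controls and acrylamide 4 within them (difference 0.22, SE 0.11). Slc5a5, the iodide symporter, spread widely with acrylamide, from 1.62 on array 4 to 3.66 on array 1, around controls at 2.29 to 3.02. Its difference of -0.09 (SE 0.39) turned to 0.22 without acrylamide 4 and to 0.027 without control 4, and its second probe had the opposite sign. Slc26a4, the anion exchanger pendrin, was not well above background on any of the 8 arrays.

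Dio1, type 1 deiodinase, which converts thyroxine to the active hormone, was the only synthesis gene apart. It read 1.10, 1.17, 0.84 and 1.38 in controls and 1.92, 1.59, 1.83 and 1.85 with acrylamide (difference 0.68, SE 0.13, 1.60-fold). Leaving out single arrays kept this difference between 0.58 and 0.76. Among the transcription factors of thyroid identity, Pax8 differed by -0.21 (SE 0.14), Nkx2-1 by 0.04 (SE 0.17) and Foxe1 by 0.09 (SE 0.13), all with overlap. Without acrylamide 1, Nkx2-1 was at -0.12 and Foxe1 at -0.017. Nkx2-1 was also below 0 without control 2 (-0.016) and without control 4 (-0.0028). The receptor Tshr varied within both groups, from 1.67 to 3.09 in controls and from 1.93 to 3.60 with acrylamide (0.34, SE 0.44).

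Stromal genes were lower. Of 22 fibroblast and matrix genes 19 were lower and 3 higher (median -0.44, none passing the test). Of the 22, 3 lay apart below, against 1.76% of all genes. The count of 3 was 2 under median centring, 1 under quantile normalization and 6 under normexp background correction. Array means of the 22 genes were 2.10, 2.19, 2.27 and 1.90 in controls and 1.42, 1.77, 1.75 and 2.00 with acrylamide. The median difference with the muscle mean as a covariate was -0.27. Ogn, a small proteoglycan, read 2.15, 2.37, 2.57 and 1.79 in controls and 1.14, 1.63, 0.98 and 1.36 with acrylamide (difference -0.94, SE 0.20, apart). Sparc, a collagen-binding glycoprotein, differed by -0.55 (SE 0.16) and Col6a1 by -0.31 (SE 0.13). Both stood apart only narrowly, through acrylamide 4.

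Igf2, the fetal insulin-like growth factor, lay below the control range on all 4 acrylamide arrays. It read 2.14, 1.98, 2.15 and 1.76 in controls and 0.81, 0.76, 1.29 and 1.58 with acrylamide (difference -0.90, SE 0.20, 0.537-fold), and -0.57 with the muscle mean as a covariate. Slc2a4, the insulin-regulated glucose transporter of muscle and fat, was apart below at -0.63 (SE 0.21). The endothelial marker Pecam1 was tightly grouped, 2.44 to 2.50 in controls and 2.16 to 2.29 with acrylamide (difference -0.23, SE 0.08). It was the only one of 13 endothelial genes apart (10 lower, median -0.08), where 1.76% of all genes lay apart below.

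Macrophage, red cell and platelet genes were mostly lower as well. Of 15 macrophage genes 14 were lower (median -0.31), with Tyrobp, a signalling adaptor, the only one apart (-0.42, SE 0.13). All 6 red cell genes (median -0.50) and all 5 platelet genes (median -0.32) were lower, with 1 gene of each list apart below. Over all genes 1.76% lay apart below. Gp5, a platelet glycoprotein, read -1.34, -2.09, -1.52 and -2.14 in controls and -3.16, -3.58, -3.54 and -2.45 with acrylamide (difference -1.41, SE 0.29, apart). Cxcl13, a B cell chemokine, overlapped through control 4 (-0.88, SE 0.27).

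Respiratory chain genes were lower by small amounts (41 of 44, median -0.15, 0 apart), and how low depended on the arrays. The median was -0.03, with 31 lower, when acrylamide 1 was left out. It was -0.33, with 43 lower and 25 of the 44 apart below (8.4% of all genes were), when acrylamide 2 and 3 were left out. That pair was chosen after seeing the data. Its list means of 4.73 and 4.69 lay within the control range of 4.56 to 4.87. Of 20 clock genes 14 were lower (median -0.13) and 1 lay apart below, against 1.76% of all genes. Npas2, a partner of BMAL1, was the only one apart, at -1.62, -1.52, -1.53 and -1.12 in controls and -1.68, -2.17, -1.76 and -2.01 with acrylamide (difference -0.46, SE 0.15), though its second probe overlapped (-0.0067, SE 0.13). The output gene Dbp differed by -0.35 (SE 0.20) and the repressor Nr1d1 by -0.45 (SE 0.25). Per1 (-0.06, SE 0.22) and Bmal1 (0.15, SE 0.26) overlapped, and both changed sign without acrylamide 3, to 0.080 and -0.020. Per1 did so also without control 1, to 0.079. Among 20 p53 targets Cdkn1a, the cell cycle inhibitor p21, overlapped (-0.12, SE 0.10), and its second probe had the opposite sign. Ccng1, cyclin G1, read 2.12, 2.60, 2.00 and 1.63 in controls and 0.81, -1.49, 2.17 and -0.99 with acrylamide (difference -1.96, SE 0.73). Acrylamide 3 lay within its controls and the other 3 arrays below them.

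**Figure D3:**
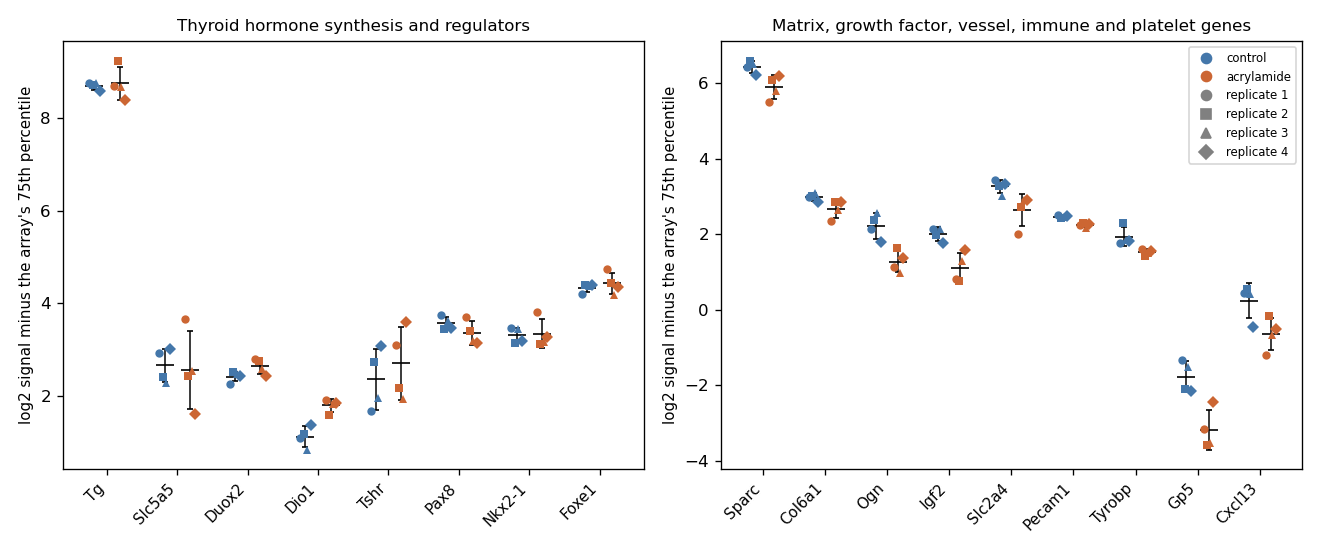
Levels (log2 processed signal minus the 75th percentile of the array) on each of the 8 arrays for 8 follicle genes and 9 stromal, vascular, immune and platelet genes; bars are the mean and SD (n = 4). Dio1 is the only follicle gene shown without overlap, and Ogn, Igf2, Gp5 and Pecam1 lie below their controls.

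**Figure D4:**
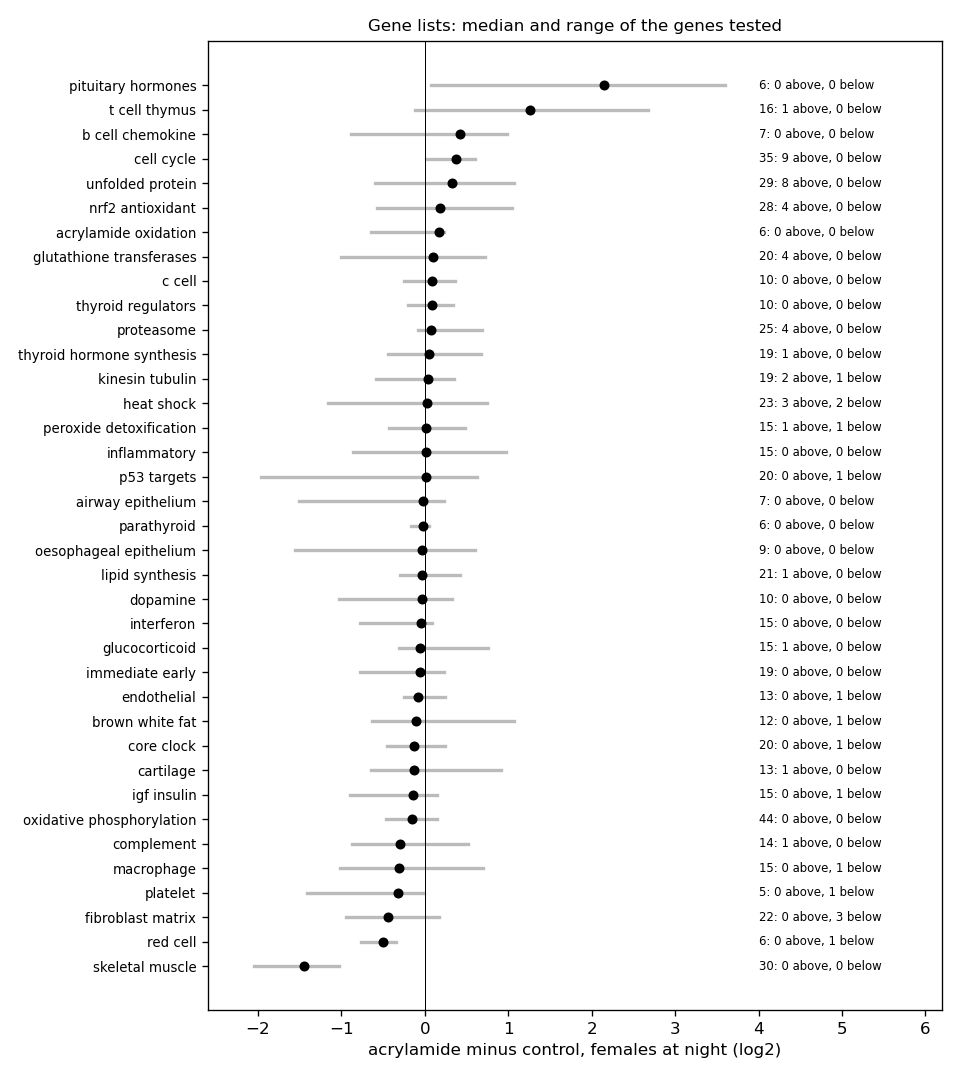
Median (point) and range (line) of the difference, acrylamide minus control on the log2 scale, over the tested genes of 37 lists, with the number tested and the numbers apart. Skeletal muscle (-1.45) and pituitary hormones (2.15) form the extremes, with 0 genes apart in either, while cell division (9) and unfolded protein genes (8) hold the most genes apart.

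Ranked by p over all genes with a symbol that lay apart, the 12 highest-placed above the controls were Aass, Pask, Gsta1, Hsph1, Ckmt1, Tsx, Matn4, Nol4, Htatip2, Dnajc3, Mthfd2 and Rexo5. Aass, the first enzyme of lysine breakdown, read -4.73, -4.83, -4.39 and -4.51 in controls and -3.74, -3.62, -3.83 and -3.84 with acrylamide (difference 0.86, SE 0.12, 1.82-fold). Ckmt1, mitochondrial creatine kinase, stood out for its narrow spread, 0.54 to 0.65 in controls and 0.97 to 1.13 with acrylamide (0.47, SE 0.08). Mthfd2, a mitochondrial folate enzyme, differed by 0.63 (SE 0.12). Another of its probes also lay apart, at 0.74 (SE 0.20), while a further one, at 0.66 (SE 0.27), overlapped. Pask, Tsx and Rexo5 were well above background on only 2, 1 and 1 of the 4 controls.

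Below the controls the 12 were Slc30a3, Bcl6b, Aplnr, Foxc2, Shox2, Eva1a, Gp5, Map3k20, Plk2, Acox2, Ogn and Eya1. Slc30a3, a vesicular zinc transporter, had the smallest p of all 21543 probes. It read -0.20, -0.13, -0.33 and -0.09 in controls and -1.21, -0.86, -1.24 and -0.90 with acrylamide (difference -0.86, SE 0.12, 0.550-fold). Bcl6b, a transcriptional repressor of endothelium (-0.54, SE 0.09, with a second probe at -0.13 that overlapped), Aplnr, the apelin receptor of vessels (-0.56, SE 0.10), and Foxc2, a factor of lymphatic vessels (-0.54, SE 0.10), were also apart. Plk2, a kinase induced by p53, differed by -0.73 (SE 0.15). Acox2, a peroxisomal oxidase of bile acid side chains, was well above background on 4 controls and 1 acrylamide array (-1.07, SE 0.22), so 3 of its 4 acrylamide values lie near background.

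The males at night had their own 4 controls and 4 acrylamide arrays, on another slide with the same rows. Of the 826 probes apart above in females, 66.2% were higher in males, against 48.9% of all probes. Of the 371 apart below, 15.9% were higher. The unfolded protein list had a median of 0.45 in males (25 of 29 higher) and the NRF2 list 0.20 (19 of 28). Gsta1 was at 1.20 (SE 0.26) in males, Srxn1 at 1.14 (SE 0.18), Creld2 at 0.96 (SE 0.23), Hspa5 at 0.94 (SE 0.22) and Igf2 at -1.23 (SE 0.44). The muscle list (-2.14) and pituitary list (4.44) had the same signs there too. Tested directly, the female difference minus the male difference passed for 0 of 21731 probes (limma, smallest adjusted p = 0.871), and 695 (3.2%) had an unadjusted p under 0.05. The smallest p belonged to Clec1b, a receptor of platelets, at -0.65 in females and 1.94 in males. C5, the complement component, was at -0.87 in females and 0.74 in males. Its levels in females on acrylamide 1, 3 and 4, -6.46 to -6.38, lie near the lowest mean level of any gene tested (-6.74).

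Morning females had separate controls too, on other slides and in another scan session, so time and slide cannot be told apart. Of the 826 probes, 42.6% were higher in the morning, against 42.1% of all, and of the 371, 71.4% were higher. The unfolded protein list had a median of -0.52 (3 of 29 higher). Thyroid regulators had a median of -1.11 and C cell genes of -1.45 in the same comparison, where Tg was at -2.29 (SE 1.56), and the part of this in the other lists was not tested. Gsta1 was at -0.76 (SE 0.38) and Igf2 at 1.12 (SE 0.49). Cell division genes were higher at both times, with 35 of 35 higher in the morning (median 0.76). The night difference minus the morning difference passed for 0 of 22802 probes (limma, smallest adjusted p = 0.0957), though 3995 (17.5%) had an unadjusted p under 0.05. Among genes with a symbol and the smallest p were Cntfr, the receptor of ciliary neurotrophic factor (-1.18 at night, 0.55 in the morning), and Ogn (-0.94 and 0.48), each with an adjusted p of 0.211.

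**Figure D5:**
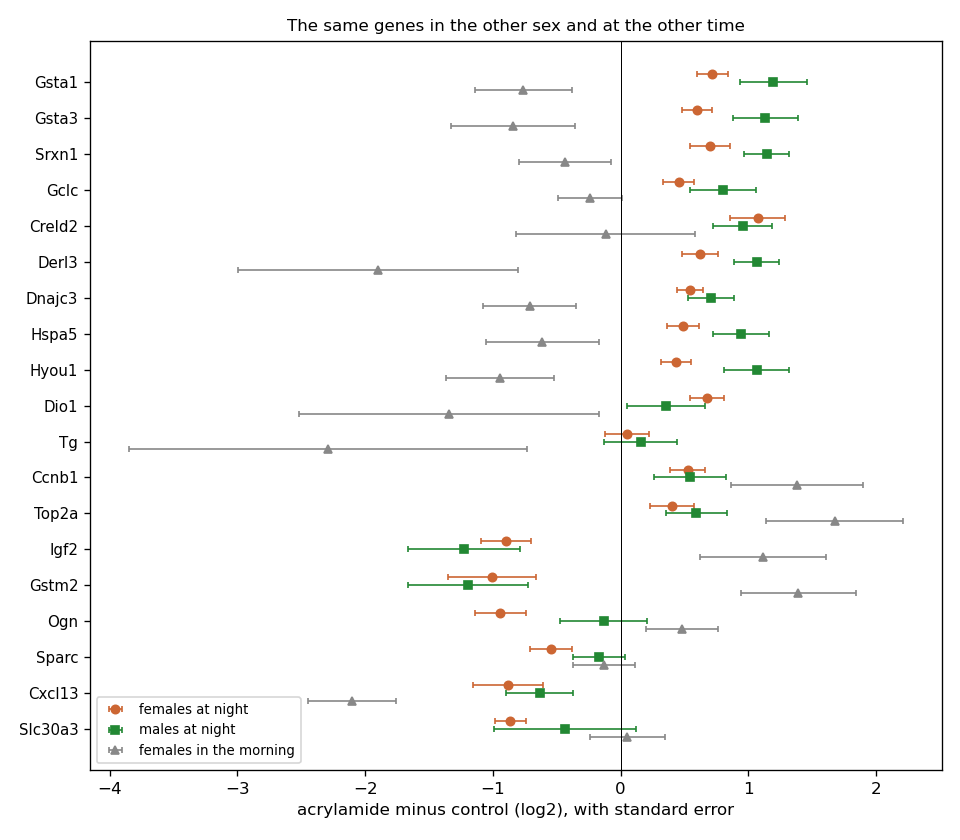
Acrylamide minus control (log2) with its standard error for 19 genes in 3 sets of pups (female night, male night, female morning), each from its own 4 control and 4 acrylamide arrays. Gsta1, Srxn1 and the chaperone genes lie above 0 in both night groups and below 0 in the morning, and Igf2 does the reverse.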

How the data were processed

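Each of 24 arrays held RNA of 1 thyroid sample. The scanner software, version 10.1.1.1 of Agilent Feature Extraction per the file headers, wrote for each spot a background-subtracted, linear processed signal (an intensity), raw intensities and 0 or 1 flags, which were deposited as they came. The deposited series matrix holds log2 values that followed log2 of the processed signal minus a constant per array, with every column median at 0. Probe positions in the headers are on rn4.

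Flagged spots were removed, log2 values of replicate spots averaged and the 75th percentile over 30367 probes subtracted. Of the values of probes tested, 22 were missing and the fit dropped those arrays for those probes only; no named gene was affected. Probes were tested when well above background on at least 3 of 4 arrays of either group. Names came from RefSeq by accession (18342 probes), symbol (2507) or synonym (531), and 8987 kept the array name. The 8 arrays were fitted in limma 3.58.1 (R 4.3.3, statmod 1.5.0, R's data.table package at 1.17.8) with 2-sided tests and Benjamini-Hochberg adjustment over all probes tested. The sex and time differences of the effect were fitted to 16 arrays each. The procedure was tested on simulated data.

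The rule named the genes apart with the smallest p (up to 12 per direction), the 2 largest differences per direction in each list, a fixed set, and the 6 smallest p per direction for the sex and time differences; other genes were chosen after their values were seen. Members and lists were chosen with earlier results of these data known. Replicate numbers did not pair the arrays: deviations of arrays with the same number correlated at -0.124 to -0.009 over probes, below the 0.1 required, so no block was used. Alternatives changed the scaling, background correction, filter, variance model, covariates and arrays. Results for some genes the rule covers are not reported here. Array number, 4 per group, limits precision.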

Additional observations from a re-analysis of the deposited data

Results flagged for a closer look

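Among 328 groups of 4 values (genes examined, list means and array measures, each in controls and with acrylamide), 15 had a single array far from the other 3 by Dixon's criterion, and chance alone flags about 1 in 20 groups. Control 4 was that array 6 times. It read -5.42 for Tsx (others -5.81 to -5.75), 3.54 for the chaperone Hyou1 (3.14 to 3.16), -0.32 for Gstm2 (0.61 to 0.76), -0.45 for Cxcl13 (0.41 to 0.54), -2.20 for Bmal1 (-3.15 to -3.03) and -1.67 for the mean of the clock list (-1.37 to -1.32). Acrylamide 1 was at -4.50 for Eva1a, 1.47 for Mcm3 (others 0.71 to 0.76), 5.35 for complement factor Cfb (4.79 to 4.85) and 4.96 for Calr (4.26 to 4.33). Control 1 was at 4.21 for Foxe1 and 4.28 for Cfb, and control 2 at 2.31 for Tyrobp. Acrylamide 2 was at -5.35 for C5 (others -6.46 to -6.38), and acrylamide 4 at 1.57 for the mean of the NRF2 list (1.83 to 1.87). The causes were not tested.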

How the results depend on the processing

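No probe passed for females at night under any of the 14 alternatives to the scaling, filter, variance model, covariates or block, nor, in an alternative chosen after seeing the data, without acrylamide 2 and 3. Leaving out single arrays gave 0 to 1 probes: 1 without acrylamide 4, a transcript without a gene symbol. The probes apart above were 826 in the main fit, 832 under median centring and 922 under quantile normalization. Those apart below were 371, 291 and 315. At an unadjusted p under 0.05 the 2096 probes became 1264 without control 1, 1367 without control 3, 1339 without acrylamide 1, 3225 without acrylamide 4, 1223 with the T cell mean as a covariate and 361 with the spread pooled over all 24 arrays. The replicate block gave 0 called probes in all 3 comparisons; in females at night 1647 had an unadjusted p under 0.05. The sex difference had 0 called probes throughout, and the time difference 0 to 1 (1 without control 3). Of 124 genes examined, 13 changed sign under at least 1 of 23 alternatives and 111 under none that gave them a value. For 14 genes 1 to 5 alternatives gave none, because the probe no longer passed the filter. With the muscle mean as a covariate, Tg was at -0.22, Foxe1 at -0.0042, Myl2 at 0.37, Per1 at 0.046, Fos at 0.16, Canx at -0.064, Cryab at 0.27, Hspb8 at 0.038 and Pth at -0.16. With the T cell mean as a covariate, Per1 was at 0.19, Bmal1 at -0.010 and Cd8a, itself in that list, at -0.31. Without acrylamide 2 and 3, Tg was at -0.16, Per1 at 0.21, Bmal1 at -0.10 and Pth at -0.056. Leaving out single arrays turned 7 genes with small differences, whose ranges were -0.11 to 0.17 for Tg, -0.46 to 0.22 for Slc5a5, -0.12 to 0.11 for Nkx2-1, -0.017 to 0.17 for Foxe1, -0.17 to 0.080 for Per1, -0.020 to 0.38 for Bmal1 and -0.070 to 0.13 for Pth. The causes were not tested.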
